A study of Mus musculus with 18 samples.

Results

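SNARE proteins are the membrane anchors that drive a transport vesicle to fuse with its target compartment, and 37 mouse genes that encode them were followed here through 6 cell populations. The members were chosen by name, from 20202 gene symbols listed in at least 1 of the 3 deposited count tables. They were grouped by the membrane step at which their proteins act. There were 12 between endoplasmic reticulum (ER) and Golgi, 13 on endosomes, lysosomes and the trans-Golgi network, and 12 at the plasma membrane. Each was put in 1 group, though some of the proteins act at other steps too, so results by step depend on this grouping. The study used the Col2.3GFP transgene, in which a fragment of the *Col1a1* promoter drives green fluorescent protein in maturing osteoblasts, so that GFP marks osteoblast lineage cells. The populations were GFP+ (hi) and GFP- cells sorted fresh from the long bones of Col2.3GFP mice, GFP+ (hi) and GFP- cells sorted from bone chip cultures of such mice after osteogenic differentiation, GFP+ osteoblasts grown from Col2.3GFP embryonic stem cells by osteogenic differentiation (ESC-OB GFP+), and embryonic stem cells (ESC), with 3 libraries each. The GFP- cells of bone and bone chips are heterogeneous. The ESC carry a label of osteogenic differentiation as well, but were taken as undifferentiated from their titles. Ages and sexes of the mice, and whether libraries came from separate mice or cultures, are not given in the sources used here, and p-values therefore cover the scatter among these libraries and nothing more.

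A SNARE complex forms when a Qa, a Qb, a Qc and an R helix, divided between the membranes to be fused, zip together. The helices of SNAP-type proteins stand in for Qb and Qc. Each step of the secretory and endocytic routes has its own set, and the ATPase NSF pulls the spent complex apart. Osteoblasts secrete type I procollagen, a cargo too long for an ordinary transport vesicle, through the ER, the Golgi and the plasma membrane. The study asked which genes are enriched in GFP+ osteoblasts of all sources, and the genes it then knocked down included *Stx5a*, *Gosr2* and *Bet1*. Those 3 were selected by the study on these same samples, so their direction here is not independent evidence.

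Depth per library was 21425212 to 43874837 counts in bone GFP+ (hi) and 5482065 to 6468750 counts in bone GFP- libraries. It was 13228266 to 15221973 in bone chip GFP+ (hi) cells and 9829832 to 17553194 in bone chip GFP- cells, and 20680956 to 26601417 in ESC-OB GFP+ cells and 4920977 to 21215099 in ESC. Of 10 osteoblast markers, 10 were higher in bone GFP+ (hi) cells, 9 in bone chip GFP+ (hi) cells and 6 of the 8 tested in ESC-OB GFP+ cells. There 1 was lower, *Alpl* (log2 fold change -3.09 ± 0.53, SE). *Bglap* and *Sp7*, at means of 0.521 and 2.37 CPM without scaling in ESC-OB GFP+ cells, did not pass the filter. The list of 8 pluripotency markers was lower in ESC-OB GFP+ cells for all 8, while 7 of the 8 were called higher in bone GFP+ (hi) cells, at means of 1.42 to 4.71 CPM without scaling, against 0 to 0.268 CPM in bone GFP- cells. In bone GFP+ (hi) cells 7 of 8 markers of chondrocytes fell. The summed level of all 8 was 10777 to 13724 CPM, against 99220 to 208662 CPM in GFP- cells. That sum includes *Col11a2*, which was not called (0.70 ± 0.48, SE). Its means without scaling were 6399 CPM in GFP+ (hi) cells and 7844 CPM in GFP- cells. Sex-linked transcripts split the bone libraries: *Xist*, the RNA of the inactive X, had 741 and 348 counts in GFP+ (hi) replicates 1 and 3, 22 counts in GFP+ (hi) replicate 2, and 0 to 10 counts in GFP- libraries. The chromosome Y gene *Ddx3y* had 6, 516 and 5 counts in the 3 GFP+ (hi) libraries and 379 to 882 counts in the GFP- libraries. Libraries of the other sources had 0 to 2 counts of it. GFP and sex in bone therefore cannot be fully told apart, and counts in bone are also given with GFP+ (hi) replicate 2 as the sole GFP+ library. Levels are in CPM, counts scaled to a common library total with TMM factors, set within a source and not comparable between sources.

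In bone, 34 of the 37 members passed the filter on low counts, of which 7 were higher in GFP+ (hi) cells, 6 were lower and 21 were not called by edgeR's quasi-likelihood test at a Benjamini-Hochberg adjusted p under 0.05. Over all genes tested, 19.5% were called higher and 22.1% lower, so the shares of SNARE genes called (20.6% and 17.6%) were near the background. In bone chips 12 members were higher, 6 were lower and 16 were not called, beside 20.4% and 23.1% of all genes. In ESC-OB, 36 members passed the filter, of which 26 were higher, 4 were lower and 6 were not called, where 43% of all genes were called higher and 34.7% lower. The median log2 fold change of the members was 0.20 (bone), 0.11 (bone chips) and 1.05 (ESC-OB), against medians over all genes tested of -0.0013, -0.0429 and 0.2211. In 10 members of bone every GFP+ (hi) library lay above every GFP- library (26.9% of all genes) and in 7 every one lay below (29.1%). In bone chips these numbers were 14 members (26.7% of all genes) and 6 members (29.5%), and in ESC-OB 27 (45%) and 4 (36.6%). With GFP+ (hi) replicate 2 alone, in a fit that takes this library to vary like the GFP- libraries, 3 members were called higher and 3 lower in bone.

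The directions in bone and bone chips turned on the scaling. SNARE transcripts together took 0.0790 ± 0.00458% of all counts in bone GFP+ (hi) libraries (SD, n = 3) and 0.138 ± 0.0184% in bone GFP- libraries, and 0.0901 ± 0.00395% in bone chip GFP+ (hi) libraries and 0.114 ± 0.00867% in bone chip GFP- libraries. *Col1a1* alone made up 36.2 to 37.5% of each bone GFP+ (hi) library. When no scaling factor was used, the median log2 fold change of all genes moved to -1.06 (bone), -0.60 (bone chips) and 0.44 (ESC-OB), and 0 members were called higher in bone or bone chips (7 and 12 with TMM). Every rise named for bone and bone chips is thus a rise on the TMM scale, and in bone *Stx5a*, *Gosr2*, *Ykt6*, *Sec22a* and *Vamp2* had a log2 fold change below 0 without scaling. ESC-OB GFP+ libraries held 0.212 ± 0.0103% of counts on SNARE genes and ESC 0.0881 ± 0.00342%, higher on that scale as well. In these bulk samples, fewer cells of a type and less RNA per cell cannot be told apart.

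The direction went with the membrane step in bone and bone chips on the TMM scale. The counts are of few genes, and no test compared the steps. Of all genes tested, 19.5% were called higher and 22.1% lower in bone, and 20.4% and 23.1% in bone chips. None of the 12 ER-Golgi members was called lower there, and 5 in bone and 8 in bone chips were called higher, with median log2 fold changes of 0.47 and 0.38. Of the 9 plasma membrane members tested, 1 was called higher in each source. Called lower were 3 in bone and 5 in bone chips. The medians were -0.44 and -0.45. Some of these calls were unstable. Those of *Bet1l* and *Use1* in bone chips were lost in 7 of 16 alternative fits, *Stx2* there in 6 of 16 and *Stx1a* there in 5 of 15. In bone *Sec22a* was not called without GFP+ (hi) replicate 1, nor *Gosr2* without replicate 2. With GFP+ (hi) replicate 2 alone, the bone log2 fold changes of *Stx5a*, *Gosr2*, *Sec22a* and *Stx2* were 0.62, 0.56, 0.66 and -0.75. Endosomal members divided between the directions, with 1 higher and 3 lower of 13 in bone and 3 higher and 1 lower of 13 in bone chips. Against ESC the pattern was another: 8 of the 11 plasma membrane members tested and 11 of 13 endosomal members were called higher in ESC-OB GFP+ cells, beside 7 of 12 ER-Golgi members. In that comparison 43% of all genes tested were called higher and 34.7% lower.

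**Figure D1:**
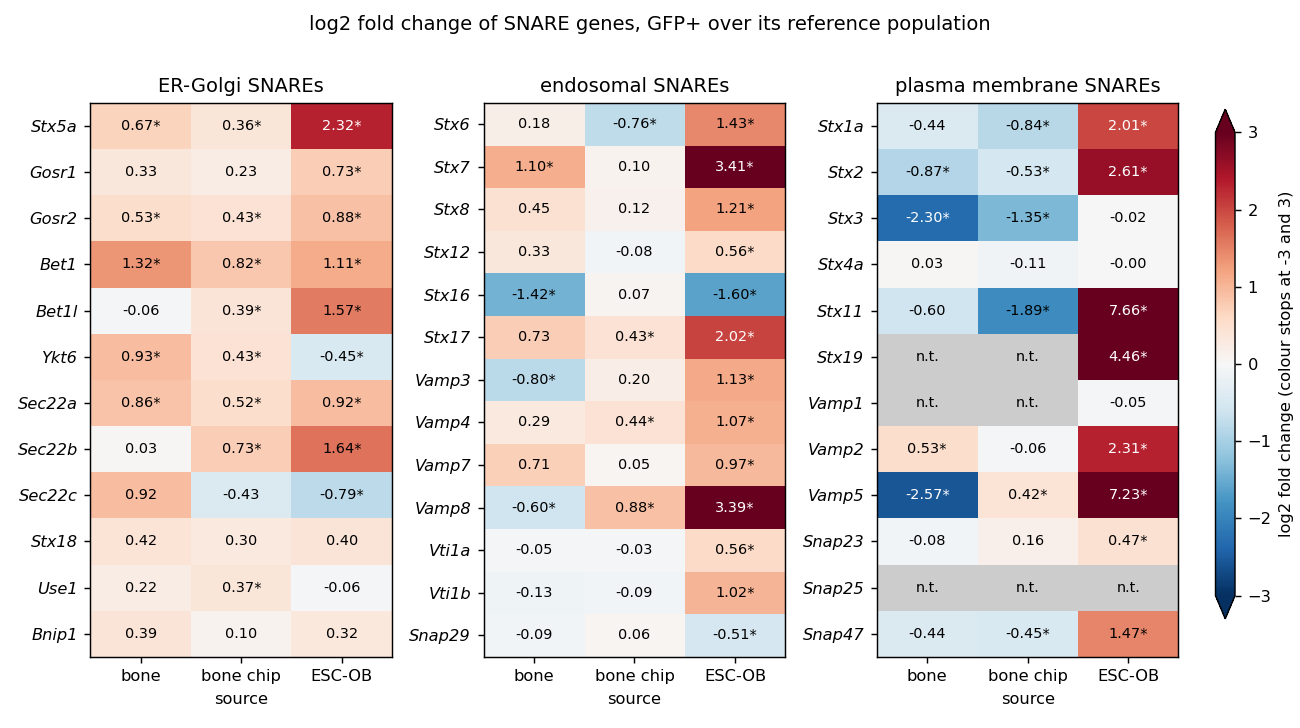
The log2 fold change of each SNARE gene in bone, bone chips and ESC-OB is printed in a grid of 3 panels, 1 for each membrane step, with colour from blue (lower in GFP+ cells) to red (higher). Asterisks mark an edgeR adjusted p under 0.05 and n.t. marks genes not tested. On the TMM scale *Stx5a*, *Gosr2*, *Bet1* and *Sec22a* of the ER-Golgi panel are called higher in all 3 columns, and without a scaling factor no member is called higher in bone or bone chips.

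*Stx5a*, *Gosr2*, *Bet1* and *Sec22a*, all of the ER-Golgi step, were called higher in the GFP+ cells of all 3 sources on the TMM scale, and none of them was without a scaling factor. They were 4 of the 34 members tested in every source (11.8%), beside 560 of 11623 genes (4.82%), and no member was called lower in all 3, beside 3.09% of genes. Syntaxin 5, the product of *Stx5a*, is the Qa SNARE of both ER-to-Golgi and intra-Golgi fusion. Its level was 185, 165 and 170.1 CPM in bone GFP+ (hi) libraries, against 98.3, 111 and 118 CPM in bone GFP- libraries. In bone chips it was 66.6, 70.8 and 73.8 CPM in GFP+ (hi) libraries, against 58.3, 52.3 and 53.8 CPM in GFP- libraries. ESC-OB GFP+ libraries held 162, 162 and 180.0 CPM, and ESC libraries 34.8, 34.9 and 31.2 CPM. The groups did not overlap in any source, and the distance was smallest in bone chips. The log2 fold changes were 0.67 ± 0.14 (SE) for bone, 0.36 ± 0.08 for bone chips and 2.32 ± 0.15 for ESC-OB, with edgeR adjusted p-values of 0.00437, 0.0125 and 2.57e-07.

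Membrin, the Qb SNARE encoded by *Gosr2*, joins syntaxin 5 on the cis-Golgi. Bone GFP+ (hi) libraries held 135, 135 and 131 CPM of *Gosr2*, against 103, 90.8 and 83.6 CPM in bone GFP- libraries. Bone chip GFP+ (hi) libraries held 84.1, 87.4 and 94.7 CPM, against 60.3, 66.3 and 70.6 CPM in GFP- libraries. In ESC-OB GFP+ libraries the level was 133, 119 and 138 CPM, and in ESC 67.5, 80.8 and 63.5 CPM. No group overlapped its counterpart, and the log2 fold changes were 0.53 ± 0.14, 0.43 ± 0.09 and 0.88 ± 0.16 (edgeR adjusted p = 0.0136, 0.00962 and 0.000435).

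Bet1 is the Qc SNARE of the same complex, and its gene had the largest called rise of any member in bone. *Bet1* stood at 49.4, 45.3 and 48.2 CPM in bone GFP+ (hi) libraries, against 18.6, 22.4 and 16.1 CPM in bone GFP- libraries. The bone chip values were 27.9, 27.4 and 30.1 CPM in GFP+ (hi) libraries, against 14.7, 17.5 and 16.1 CPM in GFP- libraries. ESC-OB GFP+ libraries had 25.1, 31.0 and 22.2 CPM, and ESC 11.1, 13.5 and 11.3 CPM. All 3 sources showed a gap between the groups, with log2 fold changes of 1.32 ± 0.17, 0.82 ± 0.10 and 1.11 ± 0.22 (edgeR adjusted p = 0.000283, 0.000762 and 0.000739).

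*Sec22a* encodes a relative of the R SNARE Sec22b, and its own place in fusion is less clear. Its level in bone was 29.9, 22.3 and 25.5 CPM in GFP+ (hi) libraries, against 17.9, 15.8 and 9.24 CPM in GFP- libraries. The bone chip level was 19.6, 18.4 and 20.3 CPM in GFP+ (hi) libraries, against 12.6, 14.1 and 13.8 CPM in GFP- libraries. ESC-OB GFP+ libraries had 31.5, 25.5 and 21.0 CPM, and ESC 13.6, 15.7 and 11.5 CPM. The groups did not overlap in any source. The log2 fold changes were 0.86 ± 0.26, 0.52 ± 0.10 and 0.92 ± 0.23 (edgeR adjusted p = 0.0239, 0.00459 and 0.00339). With bone GFP+ (hi) replicate 2 alone only *Bet1* remained called in all 3 sources, and the bone log2 fold changes of *Stx5a*, *Gosr2* and *Sec22a* were then 0.62, 0.56 and 0.66 with edgeR adjusted p-values of 0.0966, 0.131 and 0.213. Without bone GFP+ (hi) replicate 1 *Sec22a* was not called (0.74, adjusted p = 0.0823), and without replicate 2 *Gosr2* was not (0.53, adjusted p = 0.0507).

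**Figure D2:**
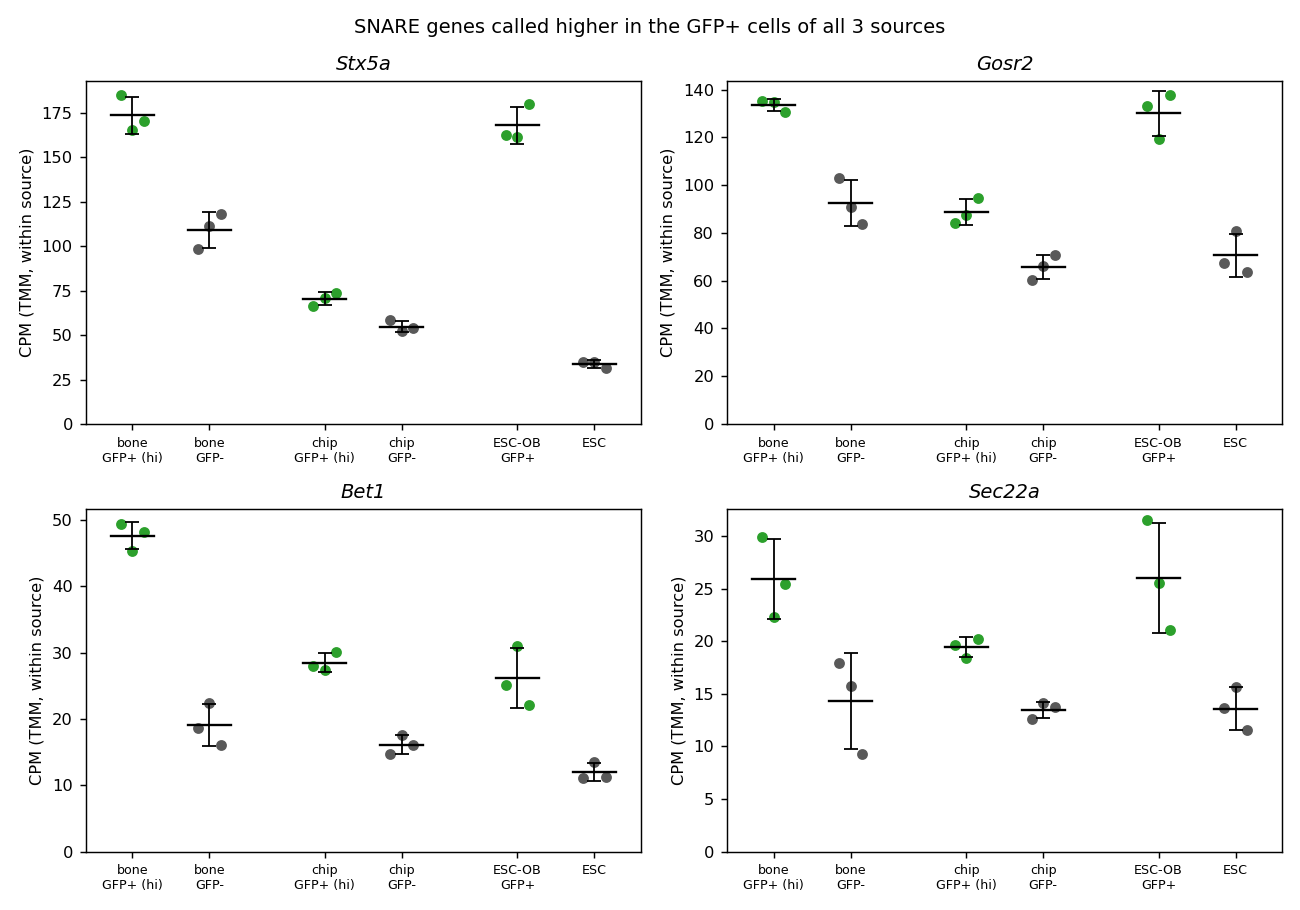
Points give the TMM-scaled CPM of *Stx5a*, *Gosr2*, *Bet1* and *Sec22a* in every library of the 6 populations (green GFP+, grey GFP- or ESC), with the mean as a line and the SD as bars (n = 3). On this TMM scale, within each source every green point lies above every grey point, from *Bet1* in bone at 45.3 to 49.4 CPM over 16.1 to 22.4 CPM to *Stx5a* in bone chips at 66.6 to 73.8 CPM over 52.3 to 58.3 CPM.

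The promoters of these 4 genes are shown because the genes moved together in every source. Each runs from 250 bases before to 50 bases after a RefSeq start of transcription on GRCm38.p6, reads 5′ to 3′ on the strand of the gene, and is the first listed for the gene. Capitals mark TGACGTGG (the unfolded protein response element, UPRE), TGACGTCA (the cyclic AMP response element, CRE) and CCACG (the part of the ER stress response element, ERSE, that adjoins its spacer), each sought on both strands, and CCACG read from the other strand lies within TGACGTGG.
*Stx5a*, chr19:8741174-8741473, plus strand: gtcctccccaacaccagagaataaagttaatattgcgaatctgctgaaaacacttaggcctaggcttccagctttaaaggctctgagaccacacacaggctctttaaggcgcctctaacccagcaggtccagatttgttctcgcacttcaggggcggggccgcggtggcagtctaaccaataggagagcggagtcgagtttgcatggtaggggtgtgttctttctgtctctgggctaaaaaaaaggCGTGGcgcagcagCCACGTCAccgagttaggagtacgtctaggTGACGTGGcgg
*Gosr2*, chr11:103697674-103697973, minus strand: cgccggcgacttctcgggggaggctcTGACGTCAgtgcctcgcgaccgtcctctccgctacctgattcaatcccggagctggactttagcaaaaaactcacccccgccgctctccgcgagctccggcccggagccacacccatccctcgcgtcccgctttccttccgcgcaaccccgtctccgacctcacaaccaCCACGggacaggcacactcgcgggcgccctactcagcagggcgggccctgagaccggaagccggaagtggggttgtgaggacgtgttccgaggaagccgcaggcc
*Bet1*, chr6:4086881-4087180, minus strand: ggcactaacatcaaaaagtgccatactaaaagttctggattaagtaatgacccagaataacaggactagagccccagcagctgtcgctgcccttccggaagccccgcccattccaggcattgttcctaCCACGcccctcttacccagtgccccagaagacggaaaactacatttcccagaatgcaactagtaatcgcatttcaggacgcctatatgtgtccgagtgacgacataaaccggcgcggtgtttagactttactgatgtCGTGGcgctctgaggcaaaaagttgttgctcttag
*Sec22a*, chr16:35363869-35364168, minus strand: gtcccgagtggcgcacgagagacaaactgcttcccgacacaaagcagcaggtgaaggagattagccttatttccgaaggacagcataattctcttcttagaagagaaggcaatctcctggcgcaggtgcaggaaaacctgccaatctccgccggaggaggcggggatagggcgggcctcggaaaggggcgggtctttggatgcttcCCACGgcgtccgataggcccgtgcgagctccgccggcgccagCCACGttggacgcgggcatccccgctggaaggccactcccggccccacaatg
The *Stx5a* promoter held TGACGTGG at 2 places, with first bases at 10 on the minus strand and at 40 on the plus strand, counted from 1 at the start of transcription. It was the sole promoter with this motif among 40 promoters of 33 members, and 0.676% of all 32851 promoters held it. TGACGTCA was found in 1 of the 40, that of *Gosr2* at -224, and in 1.79% of all promoters. CCACG was found in 19 of the 40, these 4 included, and in 32.8% of all promoters, and CACGTG (the E-box) in 4 of the 40 and in 7.15% of all. The full ERSE, which is CCAAT, a spacer and CCACG, was in 0 of the 40 and in 0.119% of all. *Vamp2*, *Vamp3*, *Vamp7* and *Snap25* had no entry. These letters are descriptions of the windows, and binding was not measured.

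Other ER-Golgi members followed in some sources. *Ykt6* encodes a lipidated R SNARE of intra-Golgi transport and other steps. Its level was 66.5, 80.1 and 78.3 CPM in bone GFP+ (hi) libraries, against 37.6, 37.9 and 42.8 CPM in bone GFP- libraries, a log2 fold change of 0.93 ± 0.15 (edgeR adjusted p = 0.00109). It rose by 0.43 ± 0.12 in bone chips (edgeR adjusted p = 0.0238, not called without GFP+ (hi) replicate 1, GFP+ (hi) replicate 3 or GFP- replicate 1) and went the other way against ESC, with 64.6, 82.0 and 66.9 CPM in ESC-OB GFP+ libraries and 94.0, 101 and 97.6 CPM in ESC (-0.45 ± 0.15, edgeR adjusted p = 0.0199, lost in 5 of 16 alternatives). *Bet1l*, whose product GS15 takes the Qc place within the Golgi, was called in bone chips (0.39 ± 0.12, edgeR adjusted p = 0.0300, lost in 7 of 16 alternatives) and in ESC-OB (1.57 ± 0.18, adjusted p = 1.41e-05), and in bone its log2 fold change was -0.06 ± 0.18. With the replicate block the bone chip value of *Bet1l* was 0.39 (edgeR adjusted p = 0.0549), which ended its call. *Gosr1*, the Qb partner of Bet1l, was called in ESC-OB alone (0.73 ± 0.16, edgeR adjusted p = 0.00139). Of the set that returns vesicles from Golgi to ER, *Stx18* and *Bnip1* were called in no source, with log2 fold changes of 0.10 to 0.42. In each source every GFP+ library of *Stx18* lay above every reference library, as in 26.9%, 26.7% and 45% of all genes. *Stx18* was called higher in 1 of 17 alternatives in bone and 3 of 16 in ESC-OB. The *Bnip1* groups overlapped in every source. *Use1* was called in bone chips alone (0.37 ± 0.12, edgeR adjusted p = 0.0423, lost in 7 of 16 alternatives). *Sec22b*, the R SNARE that serves both directions between ER and Golgi, is described with the differences between bone and bone chips, and so is *Sec22c*.

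Bet1 and GS15 take the same Qc place at successive steps, and the balance of their transcripts shifted. The ratio of *Bet1* to *Bet1l*, each per kilobase of exon and free of any scaling between libraries, was 0.740, 0.624 and 0.560 in bone GFP+ (hi) libraries, against 0.244, 0.325 and 0.181 in bone GFP- libraries. Bone chip ratios were 0.522, 0.519 and 0.469 in GFP+ (hi) libraries, against 0.329, 0.383 and 0.408 in GFP- libraries. In ESC-OB GFP+ libraries it was 0.245, 0.229 and 0.196, and in ESC 0.289, 0.342 and 0.280. GFP+ libraries were thus above GFP- libraries in bone and bone chips, and below ESC.

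The makeup of the SNARE transcripts gives a view that no scaling factor touches. For 36 members with an exon length (*Vamp7* had no gene model in the annotation of this build), counts per kilobase were expressed as a share of their sum in the library. The length was the union of all annotated exons of a gene, which need not match the transcripts counted. The ranks of genes depend on it. ER-Golgi members took 66.1 ± 0.279% (SD, n = 3) in bone GFP+ (hi) cells, against 56.4 ± 1.19% in bone GFP- cells. In bone chips they took 49.7 ± 1.09% in GFP+ (hi) cells, against 42.6 ± 2.02% in GFP- cells. In ESC-OB GFP+ cells their share was 39.9 ± 1.94%, and in ESC 47 ± 1.11%. No library of either group reached the other group's range in any source, and the order against ESC was the reverse of that against GFP- cells. Plasma membrane members ran opposite, at 12 ± 0.788% in bone GFP+ (hi) cells and 16.8 ± 0.528% in bone GFP- cells. Their share was 14.8 ± 0.25% in bone chip GFP+ (hi) cells and 20.1 ± 0.158% in bone chip GFP- cells, and 22.7 ± 0.617% in ESC-OB GFP+ cells and 19.1 ± 0.838% in ESC. Endosomal members took 21.9 ± 1.05% in bone GFP+ (hi) cells and 26.8 ± 0.801% in bone GFP- cells, and 35.4% in bone chip GFP+ (hi) cells and 37.3% in bone chip GFP- cells. They took 37.3% in ESC-OB GFP+ cells and 33.9% in ESC. *Stx5a* was the most abundant member per kilobase in every population but ESC: its share of the sum was 20.3 ± 0.793% in bone GFP+ (hi) cells, against 15 ± 1.16% in bone GFP- cells, and 11.1 ± 1.21% in ESC-OB GFP+ cells. The shares of bone chip GFP+ (hi) libraries (8.42 to 8.87%) overlapped those of bone chip GFP- libraries (7.10 to 8.73%). *Ykt6* was first in ESC with 11.2 ± 0.707%.

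**Figure D3:**
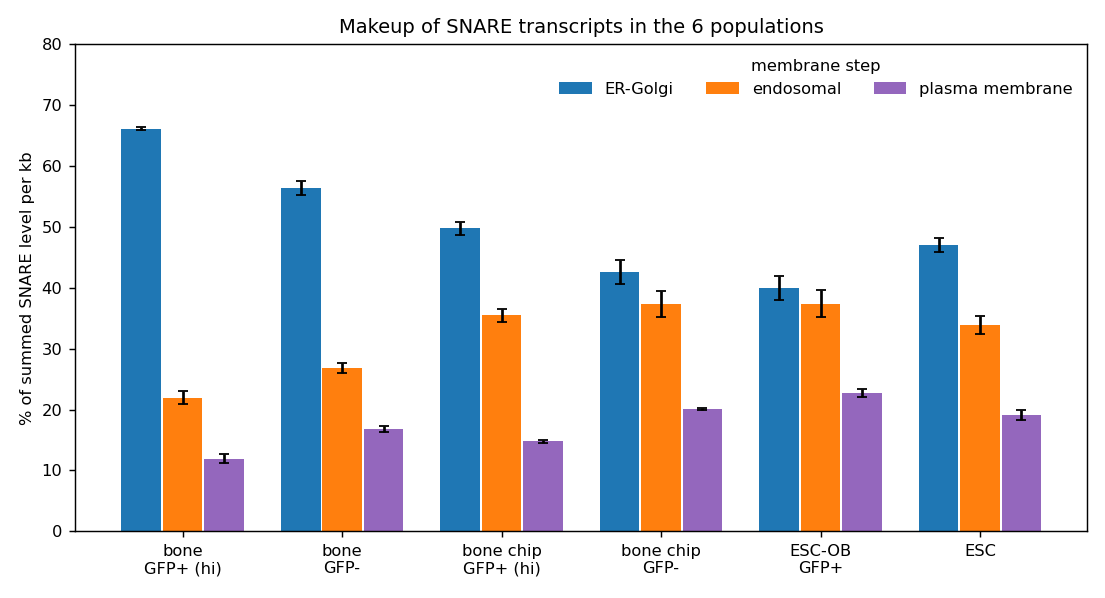
Bars give the percent of the summed SNARE level per kilobase of exon that ER-Golgi, endosomal and plasma membrane members took in each population, as the mean of 3 libraries with the SD. The ER-Golgi bar is tallest in bone GFP+ (hi) cells at 66.1%, and it is taller in GFP+ (hi) than in GFP- cells of bone and bone chips but lower in ESC-OB GFP+ cells (39.9%) than in ESC (47%).

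Among endosomal members, *Stx7* rose in bone and ESC-OB. Syntaxin 7 is the Qa SNARE of late endosomes and lysosomes. Bone GFP+ (hi) libraries held 42.7, 37.9 and 44.8 CPM of *Stx7*, against 20.9, 21.4 and 16.3 CPM in bone GFP- libraries (log2 fold change 1.10 ± 0.18, edgeR adjusted p = 0.000924). ESC-OB GFP+ libraries held 152, 123 and 115 CPM and ESC 17.0, 11.4 and 8.38 CPM (3.41 ± 0.25, edgeR adjusted p = 5.01e-07). In bone chips the groups overlapped, at 45.3, 47.2 and 42.8 CPM in GFP+ (hi) libraries and 36.9, 53.1 and 36.5 CPM in GFP- libraries. Without GFP- replicate 2, the high one, *Stx7* was called higher there as well (edgeR adjusted p = 0.0354).

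*Stx16* was the largest called fall against ESC and the largest endosomal fall in bone. Syntaxin 16 is the Qa SNARE for traffic from endosomes back to the trans-Golgi network. Bone GFP+ (hi) libraries held 5.32, 4.58 and 1.88 CPM of *Stx16*, against 12, 10.4 and 9.24 CPM in bone GFP- libraries (-1.42 ± 0.40, edgeR adjusted p = 0.0172). Without bone GFP- replicate 1 the adjusted p was 0.0651. The ESC-OB GFP+ libraries held 17.9, 29.4 and 12.9 CPM, and the ESC libraries 51.4, 70.4 and 60.3 CPM (-1.60 ± 0.28, edgeR adjusted p = 0.000325). In bone chips all 6 libraries lay between 27.6 and 32.0 CPM. Its partners at that step did not share the pattern: *Stx6* and *Vti1a* were called in neither direction in bone (0.18 ± 0.18 and -0.05 ± 0.30), and both were higher in ESC-OB (1.43 ± 0.16 and 0.56 ± 0.22). The *Vti1a* call was lost in 7 of 16 alternatives, among them the fits without ESC-OB GFP+ replicate 1 or 3 or without any single ESC library (edgeR adjusted p = 0.0549 to 0.0894).

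*Vamp8*, *Vamp3* and *Vamp7* encode R SNAREs of the late endosome, the recycling endosome and the lysosome. *Vamp8* went in opposite directions: it was at 29.0, 29.4 and 32.0 CPM in bone GFP+ (hi) libraries, against 42.9, 42.8 and 51.0 CPM in bone GFP- libraries, and at 56.9, 57.5 and 54.2 CPM in bone chip GFP+ (hi) libraries, against 26.8, 35.6 and 29.2 CPM in bone chip GFP- libraries. The log2 fold changes were -0.60 ± 0.15 and 0.88 ± 0.12 (edgeR adjusted p = 0.0123 and 0.00118). Its bone fall was not called without GFP+ (hi) replicate 1, without GFP- replicate 3 or with GFP+ (hi) replicate 2 alone. Against ESC it rose by 3.39 ± 0.26, with 141, 103 and 99.7 CPM in ESC-OB GFP+ libraries and 14.6, 10.9 and 7.12 CPM in ESC (edgeR adjusted p = 6.61e-07). *Vamp3* was lower in bone GFP+ (hi) cells, at 29.2, 29.2 and 21.4 CPM against 42.7, 47.1 and 49.1 CPM in GFP- cells (-0.80 ± 0.18, edgeR adjusted p = 0.00557), and higher in ESC-OB GFP+ cells (1.13 ± 0.16, edgeR adjusted p = 6.70e-05). In bone chips its groups overlapped, at 59.7, 63.1 and 56.5 CPM in GFP+ (hi) libraries and 48.0, 59.7 and 48.3 CPM in GFP- libraries. Without bone chip GFP- replicate 2 *Vamp3* was called higher there (edgeR adjusted p = 0.0307). The bone call was lost with GFP+ (hi) replicate 2 alone. *Vamp7*, an X-linked gene, had 27.0, 16.2 and 29.1 CPM in bone GFP+ (hi) libraries and 12.5, 18.9 and 12.9 CPM in bone GFP- libraries. The GFP+ library with chromosome Y transcripts was the low one, and the difference was not called (0.71 ± 0.27, edgeR adjusted p = 0.0597). *Vamp7* was called in ESC-OB (0.97 ± 0.20).

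*Stx17* encodes the Qa SNARE of autophagosomes, which works with SNAP29 and VAMP8. It rose in bone chips (0.43 ± 0.09, edgeR adjusted p = 0.00646) and ESC-OB (2.02 ± 0.22, edgeR adjusted p = 1.11e-05) and missed the threshold in bone (0.73 ± 0.26, edgeR adjusted p = 0.0502). *Snap29* was lower in ESC-OB, with 17.0, 18.6 and 17.9 CPM in GFP+ libraries and 25.3, 26.5 and 24.1 CPM in ESC (-0.51 ± 0.18, edgeR adjusted p = 0.0244), a call lost in 6 of 16 alternatives. Of the other endosomal members, *Stx8*, *Stx12*, *Vamp4*, *Vti1a* and *Vti1b* were each called higher in ESC-OB, with log2 fold changes of 0.56 to 1.21, and *Vamp4* also in bone chips (0.44 ± 0.12, lost in 6 of 16 alternatives). *Stx6* fell in bone chips, to 13.4, 14.8 and 20.8 CPM in GFP+ (hi) libraries against 26.4, 25.2 and 31.3 CPM in GFP- libraries (-0.76 ± 0.18, edgeR adjusted p = 0.0139), and that call was lost without GFP+ (hi) replicate 1, GFP+ (hi) replicate 2 or GFP- replicate 3. In bone its groups overlapped, at 23.2, 22.8 and 25.3 CPM in GFP+ (hi) libraries and 17.5, 21.6 and 23.7 CPM in GFP- libraries.

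At the plasma membrane, *Stx3* fell in both bone comparisons. Syntaxin 3 is the Qa SNARE of the apical membrane in epithelia. *Stx3* was at 1.57, 2.05 and 1.35 CPM in bone GFP+ (hi) libraries, against 7.92, 8.58 and 7.95 CPM in bone GFP- libraries. Bone chips had 3.98, 4.23 and 3.51 CPM in GFP+ (hi) libraries, against 8.19, 13.6 and 8.02 CPM in GFP- libraries. The log2 fold changes were -2.30 ± 0.35 and -1.35 ± 0.24 (edgeR adjusted p = 0.000716 and 0.00449), and both calls were kept in every alternative run. Against ESC it was not called (-0.02 ± 0.17), at 85.5, 60.5 and 79.4 CPM in ESC-OB GFP+ libraries and 72.6, 84.9 and 71.2 CPM in ESC. *Stx2*, another plasma membrane Qa SNARE, fell in bone (-0.87 ± 0.19, edgeR adjusted p = 0.00514) and bone chips (-0.53 ± 0.17, edgeR adjusted p = 0.0420) and rose in ESC-OB (2.61 ± 0.26, edgeR adjusted p = 5.59e-06). Its bone call was lost with GFP+ (hi) replicate 2 alone and its bone chip call in 6 of 16 alternatives. The more widely used *Stx4a* was called in no source, with log2 fold changes of 0.03 ± 0.36, -0.11 ± 0.10 and -0.003 ± 0.38. In ESC-OB the last value rests on 1 library. GFP+ libraries held 16.7, 44.7 and 14.0 CPM, and ESC 25.3, 26.1 and 23.9 CPM. Without ESC-OB GFP+ replicate 2 *Stx4a* was called lower (-0.64, edgeR adjusted p = 0.0114).

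*Stx11* encodes a syntaxin best known from secretory granules of cytotoxic lymphocytes. It had the largest called fall in bone chips, with 2.37, 2.66 and 5.34 CPM in GFP+ (hi) libraries and 11.8, 11.7 and 15.1 CPM in GFP- libraries (-1.89 ± 0.31, edgeR adjusted p = 0.00302). In bone the groups overlapped, at 3.27, 4.17 and 2.74 CPM in GFP+ (hi) libraries and 8.03, 4.35 and 3.04 CPM in GFP- libraries. It also had the largest called rise against ESC, with 1857, 1367 and 1524 counts in ESC-OB GFP+ libraries and 0, 9 and 0 counts in ESC. The pooled ratio there was 197 (exact 95% interval 103 to 430.3, for counting error only), and the fitted log2 fold change of 7.66 ± 0.43 (edgeR adjusted p = 7.9e-08) depends on the prior count at such levels. The summed level of 10 myeloid markers was 435 to 688 CPM in bone chip GFP+ (hi) libraries, against 296 to 3355 CPM in bone chip GFP- libraries, and 83.7 to 140 CPM in ESC-OB GFP+ libraries, against 15.3 to 22.5 CPM in ESC, where *Ptprc*, *Lyz2*, *Mpo*, *S100a8* and *S100a9* had 0 counts. None of the 6 markers tested in bone chips was called and 4 of the 5 tested in ESC-OB were higher. Their part in the *Stx11* result was not tested.

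*Vamp5* encodes an R SNARE first described in muscle. Its level was 1.25, 1.23 and 0.578 CPM in bone GFP+ (hi) libraries, against 4.95, 7.44 and 5.85 CPM in bone GFP- libraries (-2.57 ± 0.46, edgeR adjusted p = 0.00191). In bone chips it went the other way, at 10.3, 10.9 and 9.89 CPM in GFP+ (hi) libraries, against 7.67, 7.75 and 7.88 CPM in GFP- libraries (0.42 ± 0.11, edgeR adjusted p = 0.0206). The bone chip call was lost in 6 of 16 alternatives, among them DESeq2 and the fits without GFP+ (hi) replicate 1, GFP+ (hi) replicate 2 or GFP- replicate 1. In ESC-OB it had 921, 602 and 542 counts in GFP+ libraries and 1, 4 and 0 counts in ESC, a pooled ratio of 154 (exact 95% interval 65.9 to 475, for counting error only). *Vamp5* (chr6:72318043-72330462 on mm9) and *Vamp8* (chr6:72335217-72340697) are neighbours on the minus strand with 4754 bases between them. They changed in the same direction within each source, lower in bone GFP+ (hi) cells and higher in bone chip GFP+ (hi) and ESC-OB GFP+ cells. Whether the reads of either extend into the other was not tested.

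*Vamp2*, an R SNARE of regulated exocytosis, rose in bone, with 60.8, 58.5 and 58.1 CPM in GFP+ (hi) libraries and 40.5, 36.0 and 46.0 CPM in GFP- libraries (0.53 ± 0.15, edgeR adjusted p = 0.0192). That call was lost without GFP+ (hi) replicate 1, without GFP+ (hi) replicate 2, without GFP- replicate 1 or with GFP+ (hi) replicate 2 alone. In bone chips the groups overlapped, at 27.8, 28.2 and 33.7 CPM in GFP+ (hi) libraries and 29.7, 31.9 and 31.8 CPM in GFP- libraries. In ESC-OB *Vamp2* rose by 2.31 ± 0.19 (edgeR adjusted p = 1.20e-06). Per kilobase, *Vamp2* transcripts exceeded those of *Vamp3* in bone GFP+ (hi) libraries (ratios of 1.58, 1.52 and 2.06) and not in bone GFP- libraries (0.719, 0.580 and 0.710). The order of these genes within a library depends on the exon lengths used. *Stx1a*, the Qa SNARE of neuronal exocytosis, fell in bone chips (-0.84 ± 0.23, edgeR adjusted p = 0.0219), with 13, 17 and 14 counts in GFP+ (hi) libraries and 22, 37 and 53 counts in GFP- libraries, a call lost in 5 of 15 alternatives, and it rose in ESC-OB (2.01 ± 0.34, edgeR adjusted p = 0.000285). *Snap23*, the SNAP-type partner found in most cells, was called in ESC-OB alone (0.47 ± 0.15, edgeR adjusted p = 0.0170), and not without ESC replicate 1 (adjusted p = 0.0563) or ESC replicate 3 (adjusted p = 0.0718). *Snap47* fell in bone chips (-0.45 ± 0.10, edgeR adjusted p = 0.00990) and rose in ESC-OB (1.47 ± 0.17), and the bone chip call was lost without GFP- replicate 1 (edgeR adjusted p = 0.0536) or GFP- replicate 3 (adjusted p = 0.0521). In bone it was just short of the threshold (-0.44 ± 0.16, edgeR adjusted p = 0.0516), with GFP+ (hi) libraries at 21.1 to 25.7 CPM, below the 30.4 to 32.9 CPM of GFP- libraries.

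Other members were at or near the floor. *Snap25*, the neuronal SNAP, had no row in the bone and bone chip tables, and 3, 11 and 16 counts in ESC-OB GFP+ libraries and 0, 3 and 2 counts in ESC. *Stx19* had 3, 0 and 0 counts in bone GFP+ (hi) libraries and 1, 0 and 1 counts in bone GFP- libraries. In bone chips it had 0, 1 and 1 counts in GFP+ (hi) libraries and 1, 2 and 7 counts in GFP- libraries. Against ESC *Stx19* was the third largest rise, with 96, 46 and 50 counts in ESC-OB GFP+ libraries and 0, 2 and 1 counts in ESC, a pooled ratio of 23.9 (exact 95% interval 8.04 to 117, for counting error only) at an edgeR adjusted p of 0.000159. *Vamp1* had 9, 1 and 0 counts in bone GFP+ (hi) libraries and 9, 2 and 12 counts in bone GFP- libraries, and 11, 10 and 7 counts in bone chip GFP+ (hi) libraries and 0, 11 and 5 counts in bone chip GFP- libraries. It was not called in ESC-OB (-0.05 ± 0.33). Syntaxin 19 belongs to epithelia, and 7 of 8 stratified epithelium markers were higher in ESC-OB GFP+ cells. The summed level of all 8 was 2833 to 6068 CPM there, against 424 to 559 CPM in ESC. In ESC *Cdh1*, the marker that was lower in ESC-OB GFP+ cells, had a mean of 366 CPM without scaling. *Epcam* had 92.7 CPM and the other markers at most 0.138 CPM. The part of these 8 markers in the *Stx19* result, and in the other rises of members against ESC, was not tested.

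Bone and bone chips share the contrast of GFP+ (hi) with GFP- cells, so that the effects can be compared in 1 fit of 12 libraries. Of 35 members tested there, 9 (25.7%) had an effect that differed between the sources, beside 30.3% of all genes. In 4 the effect of bone minus that of bone chips was above 0 (14.7% of all genes) and in 5 below 0 (15.6%). The largest difference was that of *Vamp5* (-2.98 ± 0.40, edgeR interaction test, adjusted p = 0.000140), followed by *Stx16* (-1.49 ± 0.39, adjusted p = 0.0115) and *Vamp8* (-1.48 ± 0.18, adjusted p = 6.77e-05). *Vamp3* differed by -1.004 ± 0.20 (edgeR adjusted p = 0.00270). *Stx7* (1.00 ± 0.23, edgeR adjusted p = 0.00562), *Stx6* (0.94 ± 0.26, adjusted p = 0.0170) and *Vamp2* (0.59 ± 0.18, adjusted p = 0.0242) had the higher effect in bone. Without a scaling factor these 3 differences were 0.49, 0.44 and 0.10, and that of *Sec22c* was 0.88, none of them called (edgeR adjusted p = 0.190, 0.231, 0.702 and 0.136).

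*Sec22b* separated the sources among the ER-Golgi genes. In bone its groups overlapped, at 155, 136 and 128 CPM in GFP+ (hi) libraries and 142, 158 and 110.4 CPM in GFP- libraries. In bone chips they stood apart, at 95.3, 97.5 and 95.5 CPM in GFP+ (hi) libraries, against 58.7, 54.5 and 60.4 CPM in GFP- libraries (0.73 ± 0.08, edgeR adjusted p = 0.000450). The difference of the effects was -0.70 ± 0.20 (edgeR interaction test, adjusted p = 0.0172). Against ESC *Sec22b* rose by 1.64 ± 0.16 (edgeR adjusted p = 3.68e-06). *Sec22c*, a relative of *Sec22b* like *Sec22a*, had 2.53, 2.12 and 3.13 CPM in bone GFP+ (hi) libraries and 1.54, 0.801 and 1.75 CPM in bone GFP- libraries. In bone chips it had 6.53, 8.55 and 5.18 CPM in GFP+ (hi) libraries and 10.7, 8.89 and 7.84 CPM in GFP- libraries. Neither effect was called by itself, while their difference of 1.36 ± 0.46 was (edgeR interaction test, adjusted p = 0.0396), and this call was lost in 11 of 22 alternatives. *Sec22c* was lower in ESC-OB, with 6.15, 8.40 and 10.7 CPM in GFP+ libraries and 16.4, 13.2 and 14.2 CPM in ESC (-0.79 ± 0.28, edgeR adjusted p = 0.0220, lost in 4 of 16 alternatives).

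**Figure D4:**
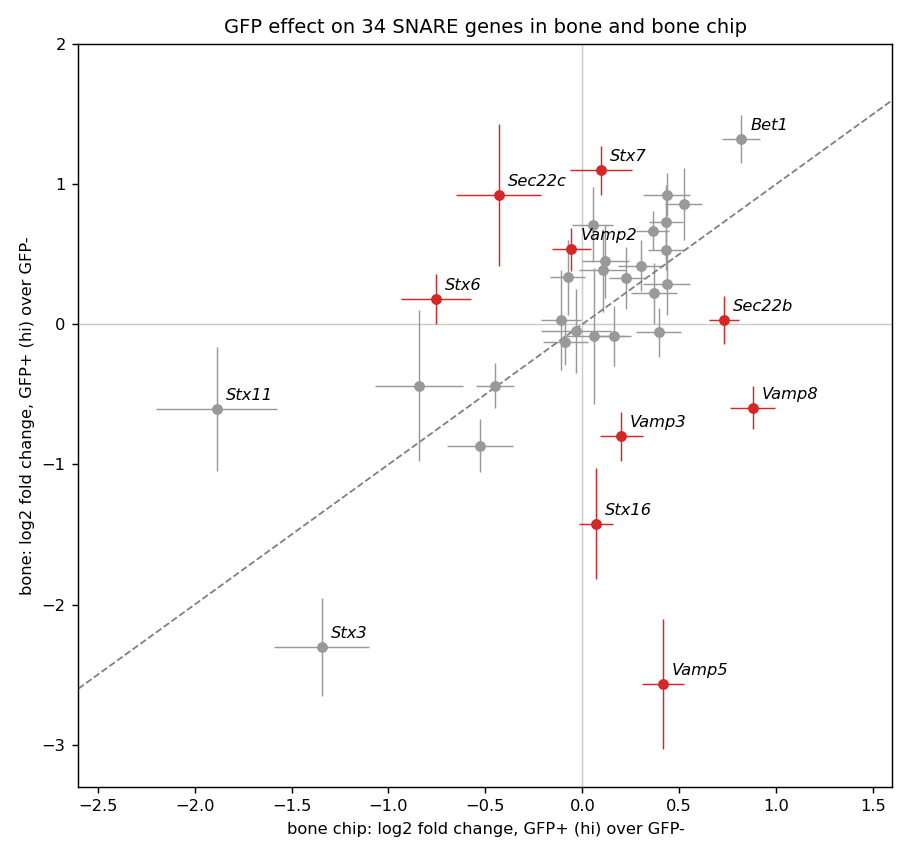
Each point is 1 of 34 SNARE genes, with the log2 fold change of bone chip GFP+ (hi) over GFP- cells on the x axis, that of bone GFP+ (hi) over GFP- cells on the y axis, and the standard errors as bars. The 9 genes in red have an edgeR interaction adjusted p under 0.05; *Vamp5*, *Vamp8*, *Stx16*, *Vamp3* and *Sec22b* lie below the dashed line of equal effects.

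With bone GFP+ (hi) replicate 2 as the sole GFP+ library of bone, 5 of these differences were called in place of 9: *Vamp5*, *Vamp8*, *Vamp3*, *Stx16* and *Stx7*. The values for *Sec22b*, *Stx6*, *Vamp2* and *Sec22c* were then -0.72, 0.89, 0.59 and 1.08, with edgeR adjusted p-values of 0.0636, 0.0752, 0.0870 and 0.167. The difference of *Sec22b* was also not called without bone GFP- replicate 2, bone chip GFP- replicate 1 or bone chip GFP- replicate 2, and that of *Vamp2* without bone chip GFP+ (hi) replicate 1 or 2. Over all sources, 32 members were called in at least 1 and 9 were called in opposite directions in different sources. Those 9 were *Ykt6*, *Stx6*, *Vamp3*, *Vamp8*, *Stx1a*, *Stx2*, *Stx11*, *Vamp5* and *Snap47*. The like counts over all genes were not taken, and in ESC-OB alone 43% of all genes were called higher and 34.7% lower. Neither count is therefore read as a trait of SNARE genes. *Vamp8* and *Vamp5* were the members called in opposite directions in bone and bone chips.

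**Figure D5:**
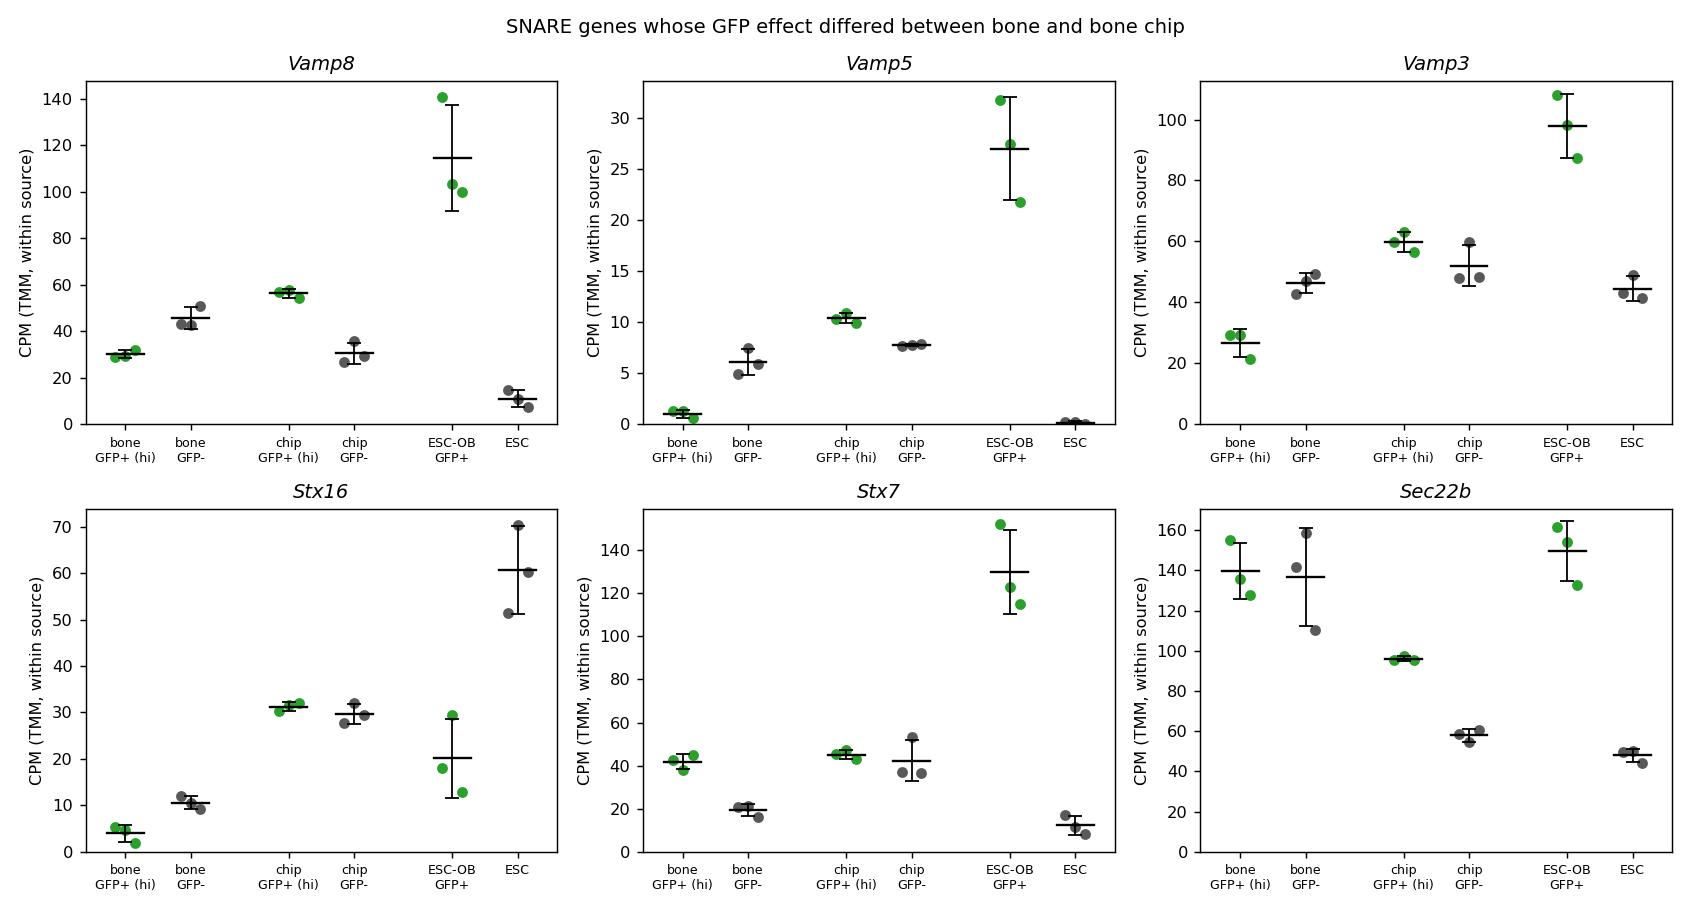
Points give the TMM-scaled CPM of 6 SNARE genes in every library of the 6 populations (green GFP+, grey GFP- or ESC), with the mean as a line and the SD as bars (n = 3). *Vamp8* and *Vamp5* lie lower in GFP+ (hi) than in GFP- libraries of bone and higher in those of bone chips, and *Sec22b* overlaps in bone (128 to 155 CPM over 110.4 to 158 CPM) but not in bone chips.

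The proteins that load, tether and take apart SNARE complexes were read from a list of 24 regulators. Of 20 tested in bone, 4 were higher and 4 lower, beside 19.5% and 22.1% of all genes. Of 22 in bone chips, 5 went each way, beside 20.4% and 23.1%, and of 23 in ESC-OB, 9 rose and 6 fell, beside 43% and 34.7%. *Nbas*, a subunit of the tether that receives retrograde vesicles at the ER with syntaxin 18, was higher in GFP+ (hi) cells of bone (1.21 ± 0.24, edgeR adjusted p = 0.00349) and bone chips (1.02 ± 0.12, edgeR adjusted p = 0.000745) and lower in ESC-OB (-0.90 ± 0.16). *Unc13d*, which primes granules in cytotoxic cells, fell by 5.17 ± 0.76 in bone and by 1.03 ± 0.33 in bone chips, and *Stxbp6* by 3.62 ± 0.64 and 1.03 ± 0.28 (edgeR adjusted p = 0.000561, 0.0436, 0.00162 and 0.0230). In bone GFP+ (hi) cells their means without scaling were 0.120 and 0.869 CPM, against 8.21 and 22.0 CPM in GFP- cells. The fitted sizes depend on the prior count at such levels, and the regulators were not run in the alternatives. *Stxbp2* fell by 1.90 in bone (edgeR adjusted p = 0.000371), and *Unc13a* rose by 2.19 ± 0.20 in bone chips (adjusted p = 0.000247). Against ESC *Stxbp6* rose by 4.70 ± 0.33, *Unc13d* by 2.44 ± 0.39 and *Stxbp5* by 2.32 ± 0.29 (edgeR adjusted p = 3.60e-07, 0.000178 and 2.67e-05). *Cplx1*, which clamps neuronal complexes, fell by 3.80 ± 0.80 (edgeR adjusted p = 0.00123). Its means without scaling were 0.156 CPM in ESC-OB GFP+ cells and 1.93 CPM in ESC. *Scfd1*, the partner of syntaxin 5, was called in no source, with log2 fold changes of 0.07 ± 0.20, 0.23 ± 0.13 and 0.20 ± 0.17.

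Exons of 7 members overlap those of a gene on the other strand in the mm9 annotation, over 1.7 to 17.7% of their exon bases: *Gosr2*, *Stx18*, *Stx8*, *Vti1b*, *Snap29*, *Stx4a* and *Snap47*. The strand setting of the counting is not given in the sources used here, so reads of such pairs cannot be told apart.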

How the data were processed

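RNA-seq libraries of 6 populations, 3 each, were analysed. From poly-A RNA the authors obtained paired-end reads, aligned them to mm9 with STAR 2.4.2a and used DESeq2 under R 3.2.2. The deposited tables, 1 per source, hold raw counts for each RefSeq gene. The counting tool and strand setting are not given in the sources used here. Each source was fitted alone with edgeR 4.0.16 under R 4.3.3: filterByExpr (minimum count 10), TMM factors, quasi-likelihood test, Benjamini-Hochberg adjustment over all genes tested, threshold 0.05. Bone and bone chip effects were compared by an interaction in 1 fit of 12 libraries. The SE is the log2 fold change over the root of F. Totals were 4920977 to 43874837 counts, and scarce members are the least precise.

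All 37 members are accounted for, and those given in full are the members called alike in all 3 sources, the 3 largest called rises and falls of each source, the members called in the interaction, *Stx5a*, *Gosr2* and *Bet1*, whose knockdown the study describes, and those below the filter. Members and lists were chosen with earlier results of these data known. Regulators named are the 4 called members of each source with the largest changes, of which 1 is not reported here, and *Scfd1* was chosen after its values were seen. The list of 24 regulators and the lists of osteoblast, pluripotency, chondrocyte, myeloid and stratified epithelium markers were counted without a set test.

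Alternatives were DESeq2 1.42.0, RLE, upper-quartile and no factors, leaving out *Col1a1* and *Rn45s*, no filter, a 1 CPM filter, a replicate block, thinning to 4920977 counts, a joint fit of 18 libraries and leaving out each library. Bone GFP+ (hi) replicate 2 alone was added after seeing the data. Same-numbered libraries had residuals that correlated at 0.158, 0.329 and 0.396 in bone chips, which by this check pairs them there, and at -0.0217 to 0.0305 in bone and -0.0150 to -0.000703 in ESC. The main fits and the interaction left this pairing out, and the replicate block was run as an alternative only. Steps were tested on simulated data in which all groups shared an expression profile but for 200 changed genes. Such data cannot check the scaling between groups as unlike as those of bone. Gene positions and exon lengths are GENCODE vM1 (mm9), promoters RefSeq. Python 3.11.15, matplotlib 3.10.9 and pandas 2.3.3 served for tables and plots.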

Additional observations from a re-analysis of the deposited data

Results flagged for a closer look

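The GFP effect differed between bone and bone chips, by the edgeR interaction test with an adjusted p under 0.05, in 9 members. On the log2 scale, the effect in bone minus that in bone chips was -2.98 for *Vamp5*, -1.49 for *Stx16*, -1.48 for *Vamp8*, -1.004 for *Vamp3* and -0.70 for *Sec22b*. It was 1.36 for *Sec22c*, 1.00 for *Stx7*, 0.94 for *Stx6* and 0.59 for *Vamp2*. The share of members that differed (25.7%) was below that of all genes (30.3%), and the bone and bone chip GFP- cells are different heterogeneous populations, which cannot be told apart from a difference between the GFP+ cells.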

How the results depend on the processing

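Of 1894 alternative values of members, 1712 kept their side of the threshold, 114 lost the call and 37 gained it with the sign kept, and 31 that were called in at least 1 of the fits compared changed sign, all 31 without a scaling factor. Of the 1712, 61 were called in neither fit and changed sign, 10 without a scaling factor and 51 in other settings. Without a scaling factor the bone log2 fold changes were -0.39 for *Stx5a*, -0.75 for *Gosr1*, -0.53 for *Gosr2*, -0.13 for *Ykt6*, -0.21 for *Sec22a*, -1.04 for *Sec22b*, -0.64 for *Stx18*, -0.83 for *Use1*, -0.87 for *Stx6*, -0.71 for *Stx12*, -0.78 for *Vamp4*, -0.99 for *Stx4a* and -0.51 for *Vamp2*. The bone chip values were -0.19 for *Stx5a*, -0.33 for *Gosr1*, -0.12 for *Gosr2*, -0.16 for *Bet1l*, -0.12 for *Ykt6*, -0.034 for *Sec22a*, -0.18 for *Use1*, -0.45 for *Bnip1*, -0.46 for *Stx7*, -0.43 for *Stx8*, -0.48 for *Stx16*, -0.12 for *Stx17*, -0.36 for *Vamp3*, -0.12 for *Vamp4*, -0.50 for *Vamp7*, -0.50 for *Snap29*, -0.14 for *Vamp5* and -0.39 for *Snap23*. Without a scaling factor bone had 0 members higher and 23 lower, bone chips 0 and 21. There was 1 lower in ESC-OB and 0 were higher in all 3 sources. The medians of all genes tested moved as well, to -1.06 in bone and -0.60 in bone chips. Shares of all genes called were not taken for any alternative, here or elsewhere. None of the counts under alternatives is therefore read as a trait of SNARE genes.

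The joint fit of 18 libraries called 13 members higher in bone, 6 higher in bone chips and 14 different between bone and bone chips, and the cause was not tested. Bone GFP+ (hi) replicate 2 alone, added after seeing the data, gave 3 higher and 3 lower in bone, 1 higher in all 3 sources and 5 differences, from fewer libraries. Leaving out each library in turn gave, for bone, 5 to 9 higher and 5 to 7 lower, for bone chips, 7 to 15 and 2 to 5, and 24 to 27 higher and 1 to 4 lower in ESC-OB, 3 to 5 higher in all 3 sources and 7 to 11 differences. Counts moved by over 1.5 times without bone chip GFP+ (hi) replicate 1 (7 higher, 3 lower), bone chip GFP- replicate 3 (2 lower), ESC-OB GFP+ replicate 1 (1 lower), ESC-OB GFP+ replicate 3 (2 lower) and ESC replicate 2 (2 lower). With the replicate block the counts were 7 higher and 6 lower (bone), 11 and 6 (bone chips), 25 and 4 (ESC-OB), and 10 differences; in ESC-OB, where the numbers do not pair, *Vti1a* was then 0.53 (edgeR adjusted p = 0.0524), and in bone chips no call but that of *Bet1l* was lost. Depth limits *Stx19*, *Vamp1* and *Snap25*.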
